A study of Rattus norvegicus with 12 samples.

Results

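Transcripts of 7 GABA-A receptor subunits were measured in primary rat cortical neurons after exposure to the volatile anaesthetics halothane and isoflurane. They were the α subunits Gabra2, Gabra3, Gabra4 and Gabra5, the β subunits Gabrb1 and Gabrb2, and the δ subunit Gabrd. These genes were taken by symbol from the platform annotation and make up 7 of the 9653 genes named there. Each had 1 probe, and all 7 had a value on all 12 arrays, so that none was lost to a filter. Most values lay close to the reference: on the 11 arrays other than halothane 1 MAC replicate 1, 73 of their 77 log2 ratios lay within 0.5 of the reference. The widest separation was that of Gabra4, which was lower on every halothane 3 MAC array than on every isoflurane 3 MAC array. It did not pass the test across all features (limma, adjusted p = 0.108). No subunit passed in any of the 5 comparisons: 0 of 7 for halothane 1 MAC against control (background 0.0% of 16546 features), 0 of 7 for halothane 3 MAC against control (0.0%), 0 of 7 for isoflurane 3 MAC against control (0.0725%), 0 of 7 between the halothane doses (0.0%) and 0 of 7 between halothane and isoflurane at 3 MAC (3.51%). At an unadjusted p under 0.05, limma counted 0 of 7 subunits in each of the first 4 comparisons, where it counted 7.54%, 6.59%, 10.1% and 18.5% of all features, and 1 of 7, Gabra4, between the anaesthetics (16.8%).

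GABA-A receptors are pentameric chloride channels that open when GABA, the main inhibitory transmitter of the brain, binds between an α and a β subunit. Volatile anaesthetics enhance the current through these channels, which are regarded as a main target of the drugs. The subunits decide where a receptor sits and how it responds: receptors with α2 or α3 are mostly synaptic, whereas those with α4 and δ, or with α5, lie largely outside synapses and carry a tonic current that persists between synaptic events.

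The cells were cortical neurons of fetal rats, prepared separately from each of 3 pregnant animals at day 17 of pregnancy and spread over 4 dishes of 100 mm per animal. The 4 groups held 3 arrays each, and all were cultured to day 16 in vitro. Halothane was given for 6 h at 1 MAC (about 1%) or at 3 MAC (about 3%) and isoflurane for 6 h at 3 MAC (about 4%), where MAC is the minimum alveolar concentration, a unit of anaesthetic potency. Treated dishes were in a gas-tight chamber, whereas control dishes received air outside that chamber in the same incubator. Chamber and anaesthetic therefore cannot be told apart in a comparison with control. After the exposure, cells had a further 6 h of recovery before harvest. No isoflurane group at 1 MAC exists, and the labels give no strain, genotype or transgene. The labels do not tie arrays to mothers, and can be read as each mother giving 1 dish to every group or as each mother giving 3 dishes to a single treatment. Under the latter reading mother and treatment cannot be told apart. The p-values rest on the spread between arrays within a group. Whether that is a spread between mothers or between dishes of 1 mother cannot be told from the labels.

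Every value is a log2 ratio of a Cy5-labelled sample over the same Cy3-labelled pool of untreated control RNA. A value of 0 means the level of the pool, and a value says nothing on how abundant one subunit is against another. The log base of 10 and the direction are likely for the deposited values and are not stated: if the ratios ran the other way, higher and lower would swap, and a base of 2 would divide each log2 value by 3.32. Differences were fitted with limma over 12 arrays, and the ± after a difference is its SE. An adjusted p is Benjamini-Hochberg over 16546 features, with a threshold of 0.05.

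Halothane 1 MAC replicate 1 stood apart, with a median of 0.23 over all features against −0.0056 to 0.0092 on the other arrays, and it reached a correlation across features of at most 0.15 with any of them. Control 2 correlated at 0.71 to 0.75 with the halothane 3 MAC arrays and at no more than 0.12 with the other controls. The means of 12 astrocyte markers followed that split, at −0.87 on control 2, 0.30 and 0.21 on controls 1 and 3, −0.98 to −0.87 with halothane 3 MAC, 0.12 to 0.15 with halothane 1 MAC and 0.010 to 0.24 with isoflurane. The means of 9 markers of dividing cells ran the other way, at 0.73 on control 2, −0.56 and −0.96 on the other controls, 0.89 to 0.99 with halothane 3 MAC, −0.31 to −0.13 with halothane 1 MAC and −0.97 to −0.10 with isoflurane. The 9 measured neuron markers, in contrast, averaged between −0.21 and 0.074 on each of the 12 arrays. Ratios against a pool of the same culture cannot show whether a marker was absent. A change in the share of a cell type and a change in the RNA per cell cannot be told apart in these bulk samples.

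**Figure D1:**
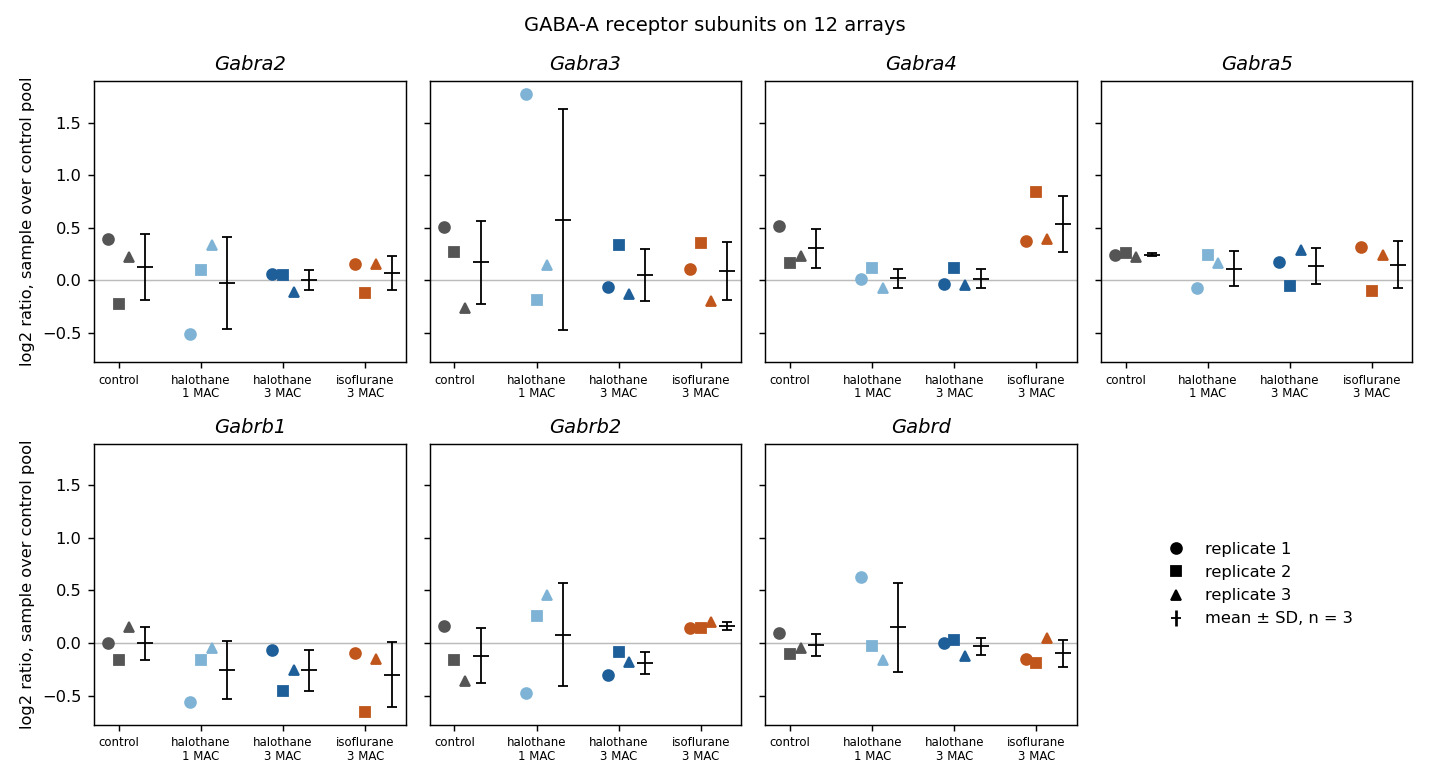
Log2 ratio of sample over control pool (vertical axis) for each of the 7 subunits on each of the 12 arrays, by group, with the mean ± SD (n = 3) of each group to the right of its points. Gabra4 lies at 0.12 or below on all 6 halothane arrays and at 0.375 or above on the 3 isoflurane arrays, and the value of 1.77 for Gabra3 is from halothane 1 MAC replicate 1.

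Gabra4 encodes the α4 subunit, which pairs with δ in extrasynaptic receptors. Its log2 ratios were 0.51, 0.17 and 0.23 in controls, 0.014, 0.11 and −0.070 with halothane 1 MAC, −0.035, 0.12 and −0.043 with halothane 3 MAC, and 0.38, 0.84 and 0.39 with isoflurane 3 MAC. All 6 halothane arrays were below all 3 controls, and the halothane doses overlapped with each other. Isoflurane arrays were above both halothane groups without overlap and overlapped with control 1. The group means were 0.30 ± 0.19 in controls, 0.020 ± 0.093 with halothane 1 MAC, 0.014 ± 0.092 with halothane 3 MAC and 0.53 ± 0.26 with isoflurane (SD, n = 3 arrays each).

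At the matched dose of 3 MAC, Gabra4 was 0.52 ± 0.16 lower on the log2 scale with halothane than with isoflurane (difference −0.52, 95% interval −0.88 to −0.17). Isoflurane over halothane was 1.44-fold, with an interval of 1.12-fold to 1.84-fold. The unadjusted p of limma was 0.0079, rank 1208 among 16546 features, and the adjusted p was 0.108. Without halothane 1 MAC replicate 1, which belongs to neither group and read 0.014 for Gabra4, near its group's mean, the difference was still −0.52 and the adjusted p of limma was 0.046. In that fit the SE was 0.147 in place of 0.162, and 2047 features passed in place of 580. The cause of the smaller SE was not tested. With control 2 also left out the adjusted p of limma was 0.035, a fit chosen after seeing the data. Over all 12 fits that each left out 1 array, the adjusted p ranged from 0.046 to 0.319.

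Against control, Gabra4 was lower by similar amounts with both doses of halothane, and neither difference passed. The difference was −0.29 ± 0.16 with halothane 1 MAC (adjusted p of limma = 0.626) and −0.29 ± 0.16 with halothane 3 MAC (0.845). With control 2 left out these became −0.35 ± 0.18 (0.781) and −0.36 ± 0.18 (0.476). The doses differed from each other by −0.0054 (95% interval −0.36 to 0.35; adjusted p of limma = 0.987). Isoflurane exceeded control by 0.23 ± 0.16 (−0.12 to 0.58; adjusted p of limma = 0.746). The astrocyte markers averaged −0.93 with halothane 3 MAC and 0.14 with halothane 1 MAC, where Gabra4 averaged 0.014 and 0.020. On control 2, with an astrocyte mean of −0.87, Gabra4 was at its lowest among the controls, 0.17. The part of the astrocyte share in the Gabra4 values was not tested.

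The letters of the Gabra4 promoter are shown beside those of Gabrb1, its neighbour on chromosome 14, and of Gabrb2, the other subunit whose arrays separated between the anaesthetics, because the 3 windows differ in composition. Each run is the 250 bases before the annotated start, 5′ to 3′ on the gene's own strand, from RefSeq on GRCr8. Capitals mark matches to an EGR motif (GCGNGGGCG) or a GC box (GGGCGG), searched on both strands. They lie at chr14:36944497-36944746 on the plus strand for Gabra4, chr14:36902894-36903143 on the minus strand for Gabrb1 and chr10:27439543-27439792 on the plus strand for Gabrb2.
Gabra4: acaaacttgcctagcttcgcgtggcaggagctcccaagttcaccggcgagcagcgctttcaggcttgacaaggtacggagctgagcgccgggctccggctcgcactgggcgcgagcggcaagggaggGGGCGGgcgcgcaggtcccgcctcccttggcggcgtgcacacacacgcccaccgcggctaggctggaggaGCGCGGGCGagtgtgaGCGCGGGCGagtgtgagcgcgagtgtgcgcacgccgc
Gabrb1: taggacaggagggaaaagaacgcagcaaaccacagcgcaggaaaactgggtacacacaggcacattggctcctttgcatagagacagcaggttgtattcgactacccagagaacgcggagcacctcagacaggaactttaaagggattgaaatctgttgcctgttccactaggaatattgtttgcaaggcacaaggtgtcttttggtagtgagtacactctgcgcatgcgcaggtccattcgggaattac
Gabrb2: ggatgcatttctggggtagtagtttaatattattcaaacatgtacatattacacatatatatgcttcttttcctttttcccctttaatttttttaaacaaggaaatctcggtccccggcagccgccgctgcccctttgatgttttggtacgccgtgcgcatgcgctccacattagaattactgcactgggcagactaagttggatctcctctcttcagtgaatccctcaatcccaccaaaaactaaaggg

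The Gabra4 window held 2 EGR matches, at bases 53 to 45 and 37 to 29 before the start, and 1 GC box, at bases 123 to 118. EGR factors are zinc finger proteins induced by neuronal activity, and EGR3 is known to act on the Gabra4 promoter in rat neurons. Of 27457 RefSeq windows of the same length, 4.53% held an EGR match and 32.4% a GC box. Neither motif stood in the windows of Gabrb1, Gabrb2 and Gabra3, whereas that of Gabra5 held 1 GC box and that of Gabrd 3. None of the 6 windows held a cyclic AMP response element (TGACGTCA, both strands; 1.70% of windows) or a TATA box (TATAAA, gene strand; 8.38%). GC content was 71.6% for Gabra4, 76.4% for Gabra5 and 74.0% for Gabrd, against 49.2% for Gabrb1, 43.2% for Gabrb2 and 40.4% for Gabra3, with a median of 52.0% over all windows. A match describes letters and is no measured binding site. The Gabra2 promoter is named only.

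Gabra2 encodes the α2 subunit, common at synapses of the young forebrain. Its log2 ratios were 0.39, −0.22 and 0.22 in controls, −0.51, 0.099 and 0.34 with halothane 1 MAC, 0.063, 0.054 and −0.11 with halothane 3 MAC, and 0.16, −0.12 and 0.16 with isoflurane. All 4 groups overlapped, and the 3 controls alone spanned 0.61. The group means lay in the order halothane 1 MAC (−0.027 ± 0.44, SD, n = 3), halothane 3 MAC (0.0021 ± 0.097), isoflurane (0.066 ± 0.16) and control (0.13 ± 0.32), with no neighbours in that order further apart than their spread. Halothane 3 MAC minus isoflurane was −0.064 ± 0.22 (95% interval −0.55 to 0.43; adjusted p of limma = 0.963). Without halothane 1 MAC replicate 1, the mean at that dose was 0.22 in place of −0.027, which moved it from the lowest place to the highest.

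Gabra3 encodes the α3 subunit, which is abundant in the developing cortex. It read 0.51, 0.27 and −0.26 in controls, 1.77, −0.19 and 0.15 with halothane 1 MAC, −0.063, 0.33 and −0.13 with halothane 3 MAC, and 0.11, 0.36 and −0.20 with isoflurane, as log2 ratios. The value of 1.77 was the highest of all 84 subunit values and came from the array that stood apart, and the other 11 values of Gabra3 overlapped across groups. With that array the halothane 1 MAC mean was 0.58 ± 1.05 (SD, n = 3), and without it the mean of the other arrays was −0.019. The control mean was 0.17 ± 0.40, the halothane 3 MAC mean 0.047 ± 0.25 and the isoflurane mean 0.089 ± 0.28. Halothane 1 MAC minus control was 0.41 ± 0.42 over all arrays (adjusted p of limma = 0.685) and −0.19 ± 0.24 without that array (0.887), so that 1 array set the direction. The anaesthetics at 3 MAC differed by −0.041 with a wide 95% interval of −0.96 to 0.87.

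Gabra5 encodes the α5 subunit of extrasynaptic receptors, best known from the hippocampus. Its controls were the most alike of the 7 subunits, at 0.25, 0.26 and 0.23, a range of 0.035 where the median feature spanned 0.36. The treated arrays read −0.073, 0.24 and 0.17 with halothane 1 MAC, 0.17, −0.051 and 0.29 with halothane 3 MAC, and 0.31, −0.099 and 0.24 with isoflurane. Each treated group had 1 array below 0, and each treated group overlapped with control. Means were 0.24 ± 0.018 in controls, 0.11 ± 0.16 and 0.14 ± 0.17 with halothane 1 and 3 MAC, and 0.15 ± 0.22 with isoflurane (SD, n = 3). None of the differences from control passed (−0.13, −0.11 and −0.094, each ± 0.16; adjusted p of limma 0.718, 1 and 0.949). Halothane and isoflurane at 3 MAC differed by −0.012, with a 95% interval of −0.35 to 0.33, or 0.782-fold to 1.26-fold, the narrowest of the 7.

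Of the β subunits, which line the channel with α and contribute to the GABA site, Gabrb1 had its control mean above the mean of every treated group. Its log2 ratios were 0.0004, −0.16 and 0.15 in controls, −0.56, −0.16 and −0.043 with halothane 1 MAC, −0.065, −0.46 and −0.26 with halothane 3 MAC, and −0.096, −0.65 and −0.15 with isoflurane. All 9 treated arrays were below 0, yet each treated group overlapped with control 2. The differences from control were −0.25, −0.26 and −0.30 for halothane 1 MAC, halothane 3 MAC and isoflurane, each ± 0.20, with adjusted p of limma at 0.633, 0.976 and 0.713. These 3 comparisons share their control arrays. The anaesthetics at 3 MAC differed by 0.041 (95% interval −0.39 to 0.47), and the halothane doses by −0.0039.

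Gabrb2 encodes the β2 subunit of the common synaptic receptor of the adult brain. Its log2 ratios were 0.16, −0.16 and −0.36 in controls, −0.48, 0.26 and 0.46 with halothane 1 MAC, −0.30, −0.087 and −0.18 with halothane 3 MAC, and 0.14, 0.15 and 0.20 with isoflurane. The isoflurane arrays lay close together above 0, and all 3 halothane 3 MAC arrays lay below 0 and below every isoflurane array. Halothane 1 MAC replicates 2 and 3 were the highest of all, and replicate 1 of that group was the lowest. Group means were −0.12 ± 0.26 in controls, 0.080 ± 0.49 with halothane 1 MAC, −0.19 ± 0.11 with halothane 3 MAC and 0.16 ± 0.034 with isoflurane (SD, n = 3).

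At 3 MAC, Gabrb2 was 0.35 lower with halothane than with isoflurane, a difference of −0.35 ± 0.22 (95% interval −0.84 to 0.14; adjusted p of limma = 0.513). Without halothane 1 MAC replicate 1 the SE shrank to 0.13 and the adjusted p of limma was 0.116. The halothane doses differed by −0.27 ± 0.22 over all arrays (adjusted p of limma = 0.501) and by −0.55 ± 0.15 without that array (0.083). Without it the difference of halothane 1 MAC from control also changed, from 0.20 ± 0.22 (0.705) to 0.48 ± 0.15 (0.501). Isoflurane minus control was 0.28 ± 0.22 (adjusted p of limma = 0.796).

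Gabrd encodes the δ subunit, the partner of α4 in receptors of high GABA sensitivity. Its log2 ratios were 0.095, −0.11 and −0.050 in controls, 0.63, −0.025 and −0.16 with halothane 1 MAC, 0.0044, 0.028 and −0.13 with halothane 3 MAC, and −0.15, −0.19 and 0.051 with isoflurane. Apart from the 0.63 of halothane 1 MAC replicate 1, every value lay between −0.19 and 0.095, and all groups overlapped. The group means were −0.020 ± 0.10 in controls, 0.15 ± 0.42 with halothane 1 MAC (−0.091 over its other arrays), −0.031 ± 0.083 with halothane 3 MAC and −0.097 ± 0.13 with isoflurane (SD, n = 3). The difference between the anaesthetics was 0.065 ± 0.19 (95% interval −0.36 to 0.49; adjusted p of limma = 0.953). Gabrd thus did not share the separation seen in Gabra4, although the difference between these subunits was not tested.

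**Figure D2:**
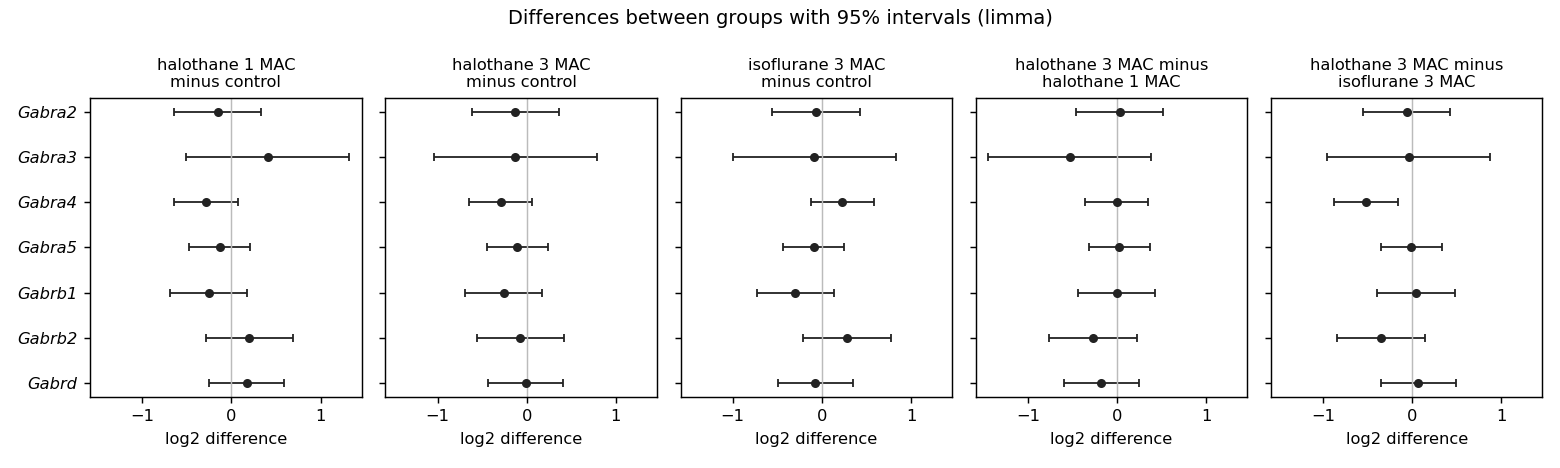
Log2 difference of each of the 7 subunits in 5 comparisons, as points with 95% intervals from limma (horizontal axis). Among the 35 intervals, that of Gabra4 for halothane 3 MAC minus isoflurane 3 MAC, −0.88 to −0.17, is the one that leaves out 0, and the widest are those of Gabra3.

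Set side by side, the comparisons gave few separations between groups. For halothane 1 MAC against control the arrays of 1 of 7 subunits, Gabra4, did not overlap, where 10.5% of all features did not. For halothane 3 MAC against control it was again Gabra4, 1 of 7 against 16.2% of features. For isoflurane against control it was 0 of 7 against 22.8%, and between the halothane doses 0 of 7 against 27.4%. Between the anaesthetics at 3 MAC it was 2 of 7, Gabra4 and Gabrb2, against 37.3%. With 7 genes, such counts cannot be read as more or fewer than the background.

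The size of the subunit differences was set beside that of all features. The median absolute log2 difference of the 7 subunits was 0.20 for halothane 1 MAC against control (0.22 over all features), 0.13 for halothane 3 MAC (0.14) and 0.094 for isoflurane (0.17). It was 0.029 between the halothane doses (0.27) and 0.064 between the anaesthetics (0.19). The subunits' medians were thus near those of all features for either dose of halothane against control and below them in the other comparisons, which was not tested. With signs kept, the subunits' median differences from control were −0.13, −0.13 and −0.077, with 3, 0 and 2 of 7 above 0. The corresponding medians over all features were 0.085, 0.0048 and 0.0039, and the 3 comparisons use the same controls. Of all 16546 features, 10068, 8452 and 8375 were above 0. 

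The remaining subunits of the family were read from 6 further genes with enough values. Gabrg1 and Gabrg3 encode γ subunits, Gabrq the θ subunit, and Gabrr1, Gabrr2 and Gabrr3 the ρ subunits known from the retina. None passed in any comparison. Gabrr3 read −0.11, 0.12 and 0.28 with halothane 3 MAC and 0.73, 0.56 and 0.53 with isoflurane, so that the groups did not overlap, and its difference was −0.51 ± 0.17 (adjusted p of limma = 0.128). Between these groups 37.3% of all features did not overlap. Gabrr2 averaged 0.60 ± 0.39 with halothane 1 MAC and 0.16 ± 0.060 in controls (SD, n = 3; difference 0.44 ± 0.20, adjusted p of limma = 0.626), with its highest value, 1.00, on the array that stood apart.

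Gabrg1, which lies next to Gabra2 in the genome, read −0.54, −0.42 and −0.68 with halothane 3 MAC and −0.39 on control 2, against 0.097 and 0.24 on controls 1 and 3 and −0.075, −0.16 and −0.071 with isoflurane. Its low arrays were thus those with low astrocyte markers, together with −2.19 on halothane 1 MAC replicate 1, where the astrocyte mean was 0.15. The part of the astrocyte share in the Gabrg1 values was not tested. Its halothane 3 MAC minus control difference was −0.53 ± 0.47. Gabrg3 and Gabrr1 differed between the anaesthetics by −0.089 ± 0.22 and 0.036 ± 0.16, and Gabrq differed by −0.38 ± 0.16 between the halothane doses (adjusted p of limma = 0.237). Gabra6, with 1 value, and Gabrp, listed at 0 on all arrays, could not be tested.

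Several of the 7 genes lie beside other subunit genes. Gabra4 and Gabrb1 are adjacent coding genes on chromosome 14: their differences from control were −0.29 and −0.25 with halothane 1 MAC, −0.29 and −0.26 with halothane 3 MAC, and 0.23 and −0.30 with isoflurane, and none passed. Gabra5 lies beside Gabrg3 on chromosome 1. Gabrb2 lies beside Gabra6 on chromosome 10.

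Beyond the 7 subunits, 29 of 48 listed genes of GABA and glycine signalling were measured, including the 6 further subunits above. In the first 4 comparisons 0 of 29 passed in limma. Above 0 were 15 for halothane 1 MAC against control, 14 for halothane 3 MAC, 18 for isoflurane and 12 between the halothane doses. Among all 16546 features, 10068, 8452, 8375 and 6848 were above 0, in the same order. At an unadjusted p under 0.05 the counts there were 3, 0, 3 and 6 of 29, where 7.54%, 6.59%, 10.1% and 18.5% of all features were counted. Between halothane and isoflurane at 3 MAC, 2 of 29 passed, both higher with halothane, 0 passed lower, and 8 were above 0. Over all 16546 features, 3.51% passed there (171 higher, 409 lower) and 8414 were above 0. The count at an unadjusted p under 0.05 in limma was 5 of 29 in this comparison, where 16.8% of all features were counted. The genes that passed were Gad1, which makes GABA from glutamate, and Slc32a1, which loads it into synaptic vesicles.

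Gad1 read −0.48, 0.59 and −0.45 in controls, −0.55, −0.47 and −0.35 with halothane 1 MAC, 0.045, 0.095 and 0.12 with halothane 3 MAC, and −1.04, −1.36 and −0.97 with isoflurane. Every isoflurane array was below all others, and control 2 was the highest. Halothane 3 MAC exceeded isoflurane 2.31-fold (1.21 ± 0.25, adjusted p of limma = 0.029), and isoflurane minus control was −1.01 ± 0.25 (0.142). Slc32a1 read −0.26, 0.18 and −0.64 in controls, −0.85, −0.34 and −0.50 with halothane 1 MAC, 0.078, −0.14 and 0.15 with halothane 3 MAC, and −0.84, −1.27 and −0.86 with isoflurane. Its halothane 3 MAC arrays were likewise all above its isoflurane arrays, by 2.03-fold (1.02 ± 0.22, adjusted p of limma = 0.034), whereas isoflurane overlapped with halothane 1 MAC replicate 1. For both genes the highest of the 12 arrays was the unexposed control 2, at 0.59 and 0.18. That array shared the low astrocyte mean of halothane 3 MAC, at −0.87. The part of that split in the Gad1 and Slc32a1 differences was not tested.

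Both calls were lost when any 1 of the 6 arrays of these groups was left out: over the 12 fits without 1 array, the adjusted p of limma ranged from 0.00063 to 0.119 for Gad1 and from 0.010 to 0.144 for Slc32a1. In the 6 fits that lost the call, the difference was 1.09 to 1.29 for Gad1 and 0.88 to 1.11 for Slc32a1, near the values over all arrays. The list of inhibitory neuron markers, which includes both genes, averaged −0.27 to −0.17 with halothane 3 MAC and −0.45 to −0.25 with isoflurane over 13 genes. These ranges overlap, and the part of inhibitory neuron number in the difference was not tested. Gad1 and Slc32a1 are part of this list mean. With halothane 3 MAC and isoflurane, the list averaged −0.21 and −0.32, Gad1 0.088 and −1.12, and Slc32a1 0.031 and −0.99. These means place the average of the other markers lower with halothane 3 MAC than with isoflurane, the direction opposite to Gad1 and Slc32a1. The difference of those other markers was not tested. For Gabra4, whose mean was higher with isoflurane, the direction was opposite to that of Gad1 and Slc32a1. Abat, which breaks GABA down, differed by 0.44 ± 0.17 between the halothane doses (adjusted p of limma = 0.194).

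**Figure D3:**
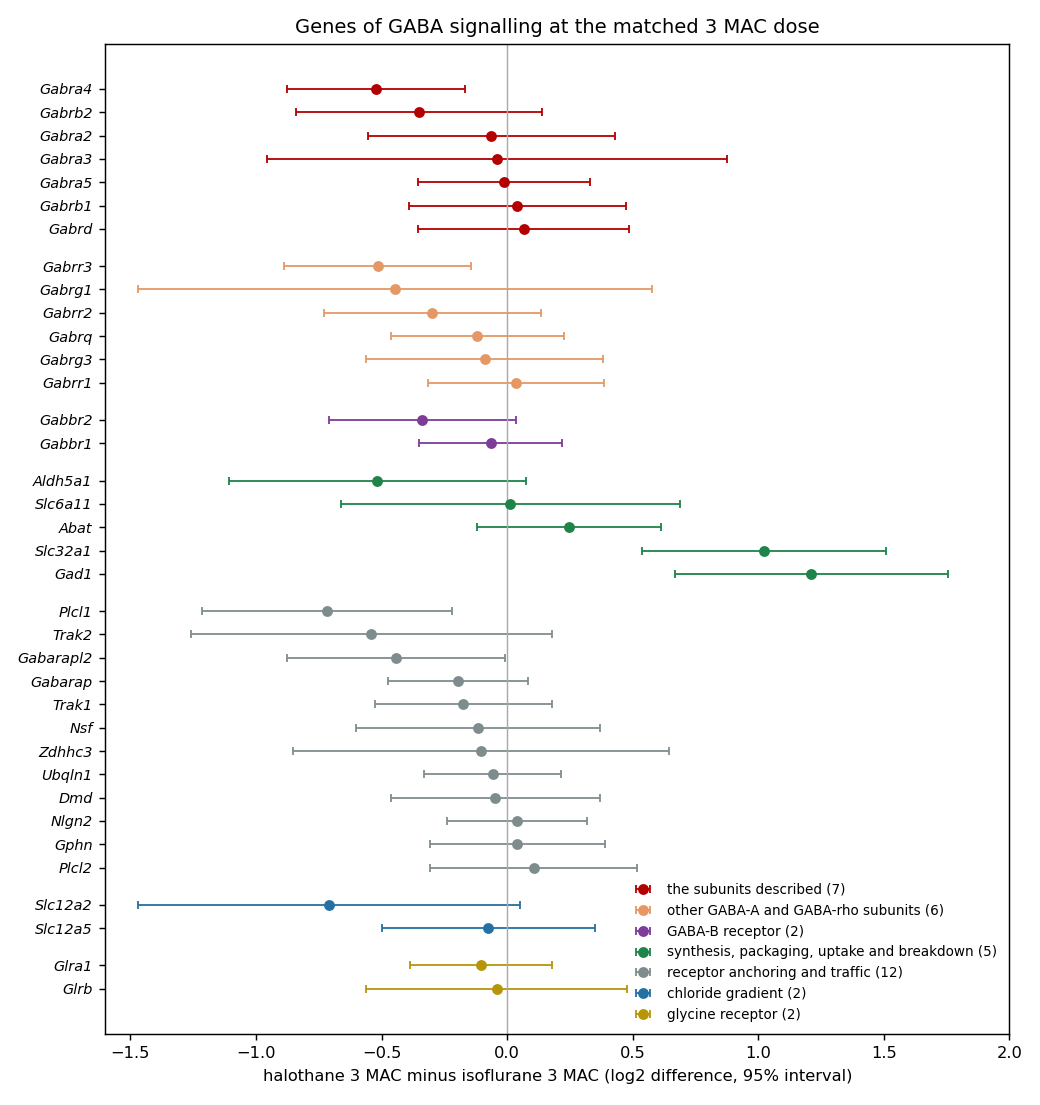
Log2 difference of halothane 3 MAC minus isoflurane 3 MAC, with 95% intervals from limma, for the 7 subunits and the other measured genes of GABA and glycine signalling, by group. Gad1 (1.21) and Slc32a1 (1.02) are the 2 genes past an adjusted p of 0.05, and Gabra4 (−0.52) is the lowest of the 7 subunits.

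Among the genes that anchor and move the receptors, 12 of 19 were measured and 0 passed in any comparison. Plcl1, which binds GABA-A receptor β subunits and the trafficking protein GABARAP, read 0.98, 0.74 and 0.97 with isoflurane and −0.21, −0.021 and 0.13 in controls without overlap. Its difference from control was 0.93 ± 0.23 (adjusted p of limma = 0.142), and halothane 3 MAC was lower than isoflurane by a difference of −0.72 ± 0.23 (0.114). Of all features, 22.8% did not overlap between isoflurane and control. Gphn, which encodes the synaptic scaffold gephyrin, was 0.48 ± 0.16 higher with halothane 3 MAC than with 1 MAC (adjusted p of limma = 0.146). Plcl2, a relative of Plcl1, exceeded control by 0.56 ± 0.19 with halothane 1 MAC (adjusted p of limma = 0.626).

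The chloride gradient decides whether an open GABA-A channel inhibits or excites, and it is set by the importer Slc12a2 (NKCC1) and the exporter Slc12a5 (KCC2). Slc12a2 read 0.55, 0.86 and 0.54 with isoflurane, above all controls (0.15, −0.045 and 0.26) and above all halothane 3 MAC arrays (0.011, −0.18 and −0.0046). With −1.31 on halothane 1 MAC replicate 1 widening the pooled spread, the difference from control was 0.53 ± 0.35 (adjusted p of limma = 0.708) and that between the anaesthetics −0.71 ± 0.35 (0.343). Among all features, 22.8% did not overlap between isoflurane and control, and 37.3% did not between the anaesthetics. Slc12a5 averaged 0.0008 in controls, −0.15 with either dose of halothane and −0.074 with isoflurane. The GABA-B receptor genes Gabbr1 and Gabbr2 differed between the anaesthetics by −0.065 ± 0.13 and −0.34 ± 0.17, and the glycine receptor genes Glra1 and Glrb by −0.10 ± 0.13 and −0.042 ± 0.24, none of which passed.

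The genes most like each subunit were sought among 8926 named genes by Pearson correlation over the 11 arrays other than halothane 1 MAC replicate 1. Gabra4 was most like Rfx3 (r = 0.956) and Kif1b (0.934), which kept r at 0.845 and 0.811 over 12 arrays. Gabrb2 was most like Nob1 (0.957) and Nupr1 (0.943), at 0.468 and 0.866 over 12 arrays. Gabrb1 was most like Mturn (0.938) and Faah (0.936), at 0.884 and 0.764 over 12 arrays, and Gabrd most like Sstr2 (0.928) and Dhx38 (0.886), at 0.843 and 0.891. The nearest to Gabra2 were Ctsf (0.920) and Nlgn1 (0.919), at 0.575 and 0.909 over 12 arrays. For Gabra5 they were Samd4b (0.915) and Prkrip1 (0.909), at 0.279 and 0.930, and for Gabra3 Epn3 (0.913) and Sall2 (0.826), at 0.982 and 0.960. The likeness of Nob1, Ctsf and Samd4b thus fell by over 1.5 times when halothane 1 MAC replicate 1 was put back. These are the highest of many correlations over few arrays that share 1 reference pool and their treatment groups, and they describe these arrays only.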

How the data were processed

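Total RNA of 12 samples was hybridised to 2-colour Agilent arrays, per the labels. The deposited log10 ratios (base and direction likely, not stated) of Cy5 sample over Cy3 control pool were multiplied by 3.32 to give log2. The submitters' processing notes name Partek. For background and dye correction, the method is not given in the sources used here. Without spot intensities no probe could be compared with its background. Precision is limited by the number of arrays. Of 21575 spots, 12750 had 1 gene symbol, 5 several and 8820 none, and 12720 symbols matched RefSeq. An exact 0 (5.96% of values) was treated as missing, and 471 spots at the limit of 2 on the deposited scale were left out. Probes of a gene that had values on all 12 arrays were averaged. Where a gene had no such probe, its probe with the most values was taken. Features with at least 2 values in each group were tested, 16546 in all (9210 genes, 7336 unnamed probes).

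Group means were fitted over all 12 arrays with limma 3.58.1 in R 4.3.3 (lmFit, eBayes, two-sided, 8 residual and 3.46 prior degrees of freedom), with Benjamini-Hochberg adjustment and no further normalisation. The steps were tested on simulated data. Tables and plots used Python 3.11.15, pandas 2.3.3, numpy 2.4.6 and matplotlib 3.10.9. The alternatives varied the zeros, probe averaging, normalisation, filter, weights, variance, block, log base, reference and arrays. The subunits, lists and tests were chosen with earlier results of these data known. All 7 subunits, every other measured GABA-A subunit and, in each other list, at most the 3 genes of smallest p in any comparison were named. Likeness took the 2 highest correlations.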

Additional observations from a re-analysis of the deposited data

Results flagged for a closer look

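Gabra4 drew attention because the anaesthetics at 3 MAC lay on opposite sides of the control mean of 0.30. All 3 halothane arrays were below that mean and all 3 isoflurane arrays above it, although the isoflurane arrays overlapped with the controls. The difference itself, halothane minus isoflurane, was −0.52 ± 0.16 on the log2 scale and was tested in the limma fit, with an adjusted p of 0.108. It therefore did not pass over all features.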

How the results depend on the processing

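Of 791 differences of the subunits refitted under 23 alternatives, 764 kept their side of the threshold and moved little, 21 moved by more than the spread, and 6 newly passed it. The sign changed in 61 of the 791, with no call on either side. Gabra4 between the anaesthetics was below 0 in 22 of 22 alternatives (−0.60 to −0.16, adjusted p of limma 0.0070 to 0.319). It passed in 3: with array weights, without halothane 1 MAC replicate 1, and without both that array and control 2. With control 2 alone left out, it did not pass (adjusted p of limma = 0.095). With array weights, subunits that passed numbered 1 between the halothane doses (Gabrb2, −0.56, adjusted p of limma 0.0027) and 2 between the anaesthetics (Gabra4, −0.47, and Gabrb2, −0.39, 0.0070 and 0.021). Set against the pooled channel, 1 passed with isoflurane (Gabra4, 0.53, 0.012). The untreated control arrays also averaged 0.30 above that pool for Gabra4, so 0.53 is not a difference from the control arrays. Without both arrays that stood apart, a choice made after seeing the data, 1 passed between the anaesthetics, where leaving out 1 array gave 0 to 1. The cause was not tested.

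Counts over all features moved more. For halothane 1 MAC against control (0) they were 1 with zeros kept, 1 with quantile normalisation, 1 with arrays scaled, 4 with weights, 2 with ordinary variances, 755 against the pool, 2 without both arrays and 0 to 4 without 1 array (4 without control 1). For halothane 3 MAC against control (0) they were 721 with weights, 1 with ordinary variances, 1173 against the pool, 1791 without both arrays and 0 to 465 without 1 array (465 without control 2). For isoflurane against control (12; 10 higher, 2 lower) they were 7 with zeros kept, 4 with quantile normalisation (1 higher, 3 lower), 9 with scaling (6 higher, 3 lower), 346 with weights, 1 with the replicate block, 2429 against the pool, 270 without both arrays and 1 to 386 without 1 array (386 without halothane 1 MAC replicate 1, 79 without control 3, 1 to 6 without any other). Between the halothane doses (0) they were 150 with quantile normalisation, 7 with scaling, 4208 with weights, 4 with ordinary variances, 1637 without both arrays and 0 to 698 without 1 array (698 without control 2, 69 without halothane 1 MAC replicate 1, 15 without control 1). Between the anaesthetics (580) they were 4385 with weights, 22 with ordinary variances, 2994 without both arrays and 0 to 2047 without 1 array (2047 without halothane 1 MAC replicate 1, 1038 without control 2, 0 to 1 without any halothane 3 MAC array, 6 to 61 without any isoflurane array). In counts against the pool the level of the control arrays is not subtracted, so an offset from the pool that the controls share is counted too. The pooled channel gives no other value for a comparison between treatments.

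Replicate numbers did not pair the arrays: 18 same-numbered pairs had deviations correlated at −0.076 to 0.097, 0 of them over 0.1, and 4 of 12 arrays correlated best with their own number. With the replicate block, Gabra4 between the anaesthetics had an adjusted p of limma of 0.140, 431 features passed there, and Slc32a1 lost its call (0.060) while Gad1 did not (0.044). With ordinary variances both lost it (0.081 and 0.084). Signal over background was not analysed here, so that a dim probe could not be told from an unchanged one.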
